A study of Mus musculus with 8 samples.

Results

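The S phase and DNA replication genes described here are 45 mouse genes that license origins, open and copy DNA, supply deoxynucleotides or package the new chromatin. They were chosen by name, as rows of the count table whose identifier carries the listed symbol in GENCODE release M21, and all 45 were found among its 55450 genes. Total RNA was sequenced in 8 libraries of RAW264.7, a macrophage-like mouse cell line, after 4 days in culture. Cells labelled shNS express a non-silencing shRNA, and cells labelled shDis3l2 are knockdown cells for Dis3l2, which encodes an exoribonuclease that degrades uridylated RNA. With doxycycline at 1 µg/mL there were 3 libraries of each line, and without it there was 1 library of each line. Inducible shRNA vectors often respond to doxycycline, and the labels do not say which promoter drove these shRNAs, whether a line was a pool or 1 clone, or whether the replicates were separate cultures. The p-values therefore measure the spread between these libraries, which may be technical. The study named the comparison of knockdown and non-silencing cells, and the question here is how the replication genes stood in that comparison and with and without doxycycline.

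Before a chromosome is copied, the origin recognition complex, Cdc6 and Cdt1 load the Mcm2-7 helicase onto DNA in G1. In S phase, Cdc45 and the GINS complex switch that helicase on, the DNA polymerase alpha-primase complex makes primers, and the clamp Pcna tethers polymerases delta and epsilon. E2F transcription factors with the E-type cyclins drive many of these genes at the passage from G1 to S phase, so their RNA is commonly read as a sign of proliferation in cultured macrophage lines.

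Because E2F factors are known regulators of this set, the sequences before the start sites were read first, from a RefSeq promoter table on build GRCm38.p6 that held an entry for 37 of the 45 genes. Each entry spans 250 bases before to 50 bases after a start site. An E2F site, spelled TTTCCCGC, TTTCGCGC, TTTGCCGC or TTTGGCGC and searched on both strands, stood in the entries of 15 of the 37 genes (40.5%), against 704 of 27025 genes in the table (2.60%). In a list of 20 mitosis genes, 16 had an entry and 1 of these (6.25%) held the site. CCAAT, searched on both strands, was in 21 of the 37 replication genes (56.8%), in 14 of the 16 mitosis genes (87.5%) and in 41.1% of all genes. Genes with several start sites have more bases searched, and among the 33 replication genes with 1 start site 36.4% held the E2F site, against 2.32% of all such genes. A match is a string of letters, with no binding measured in these data. The windows below belong to genes whose values are given later, and the capitals mark the E2F site on either strand. All stand on build GRCm38.p6 and end before the RefSeq start site. The Orc1, Mcm7 and Gins3 windows are kept short because they touch an annotated exon of the gene.
Mcm6, minus strand, chr1:128359720-128359777: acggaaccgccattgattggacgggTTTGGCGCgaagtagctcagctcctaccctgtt
Mcm5, plus strand, chr8:75109335-75109392: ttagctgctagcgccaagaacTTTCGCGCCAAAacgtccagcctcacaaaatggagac
Cdc6, plus strand, chr11:98907988-98908045: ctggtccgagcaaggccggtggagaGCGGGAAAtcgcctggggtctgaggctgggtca
Pola1, minus strand, chrX:93632261-93632318: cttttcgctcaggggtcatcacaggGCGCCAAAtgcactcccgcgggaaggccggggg
Uhrf1, plus strand, chr17:56304103-56304160: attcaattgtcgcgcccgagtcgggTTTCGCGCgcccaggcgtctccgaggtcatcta
Orc1, plus strand, chr4:108579416-108579445: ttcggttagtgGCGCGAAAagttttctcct
Mcm7, minus strand, chr5:138172030-138172059: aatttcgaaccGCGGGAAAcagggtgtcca
Gins3, plus strand, chr8:95633507-95633536: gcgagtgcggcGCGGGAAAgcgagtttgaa
The Mcm6 site shown, 1 of 3 matches upstream of its start, lay 47 to 40 bases before that start. The site of Gins3 lay 41 to 34 bases and that of Orc1 27 to 20 bases before. In Mcm5 the capitals join a pair of overlapping matches, 1 on each strand. The Tyms, Dut, Ccne1 and E2f1 entries held neither E2F site nor CCAAT, which says only that these letters are not in those windows.

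The libraries held 30341823 to 45557804 counts. Levels are given as CPM, counts scaled by TMM to a common library size, and between genes as RPKM, which also divides by exon length. Dis3l2 itself was at 33.0, 28.7 and 22.0 CPM in the shNS libraries with doxycycline and at 12.0, 13.5 and 14.9 CPM in the shDis3l2 libraries. Without doxycycline it was at 29.7 CPM in shNS and 28.6 CPM in shDis3l2. Its log2 fold change with doxycycline was -1.05 (edgeR adjusted p = 0.0216), and it lost that call when any 1 of the shDis3l2 libraries was left out (adjusted p = 0.0776 to 0.112). Of 10 macrophage markers, 9 stood above 1 CPM in every library, with a summed level of 6504 to 11959 CPM. The exception was Aif1, at 0.839 CPM in untreated shDis3l2. Single markers differed between the lines in both directions. Adgre1 averaged 94.3 CPM in shNS and 14.5 CPM in shDis3l2 with doxycycline, and was at 78.8 and 5.01 CPM without it. Csf1r averaged 1545 CPM in shNS and 2211 CPM in shDis3l2 with doxycycline. Summed markers of fibroblasts, T cells, B cells and epithelium reached at most 0.259 CPM and those of endothelium 1.24 CPM. Replicate 2 of shNS with doxycycline stood apart together with untreated shNS: E2f2, another E2F factor, was at 7.55 and 11.2 CPM in these and between 30 and 42.5 CPM in the other 6 libraries. E2f2 was chosen here after its values were seen. The results that rest on these libraries are therefore also given without replicate 2 of shNS.

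All 45 genes were expressed in all 8 libraries, with 385 to 12452 counts per gene and library, and all passed the low-count filter of each fit. Per length, Pcna, the sliding clamp, was highest at a mean of 100 RPKM over the libraries. Uhrf1, which guides maintenance of DNA methylation behind the fork, followed at 50.4 RPKM, then Mcm5 at 44.4, Mcm3 at 42.3 and Mcm6 at 40.7 RPKM. At the other end were Gins2 at 4.55, Pole2 at 4.64, Prim2 at 4.85 and Orc1 at 5.36 RPKM. All 6 subunits of the helicase core were among the 11 highest of the 45, with Mcm2 in place 11 at 25.6 RPKM. For a given gene the highest of the 8 libraries was 1.17 to 2.39 times the lowest, with a median of 1.61 times. The spread was widest for Ccne1 (2.39 times) and Cdc6 (2.36 times) and narrowest for Gins4 (1.17 times).

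**Figure D1:**
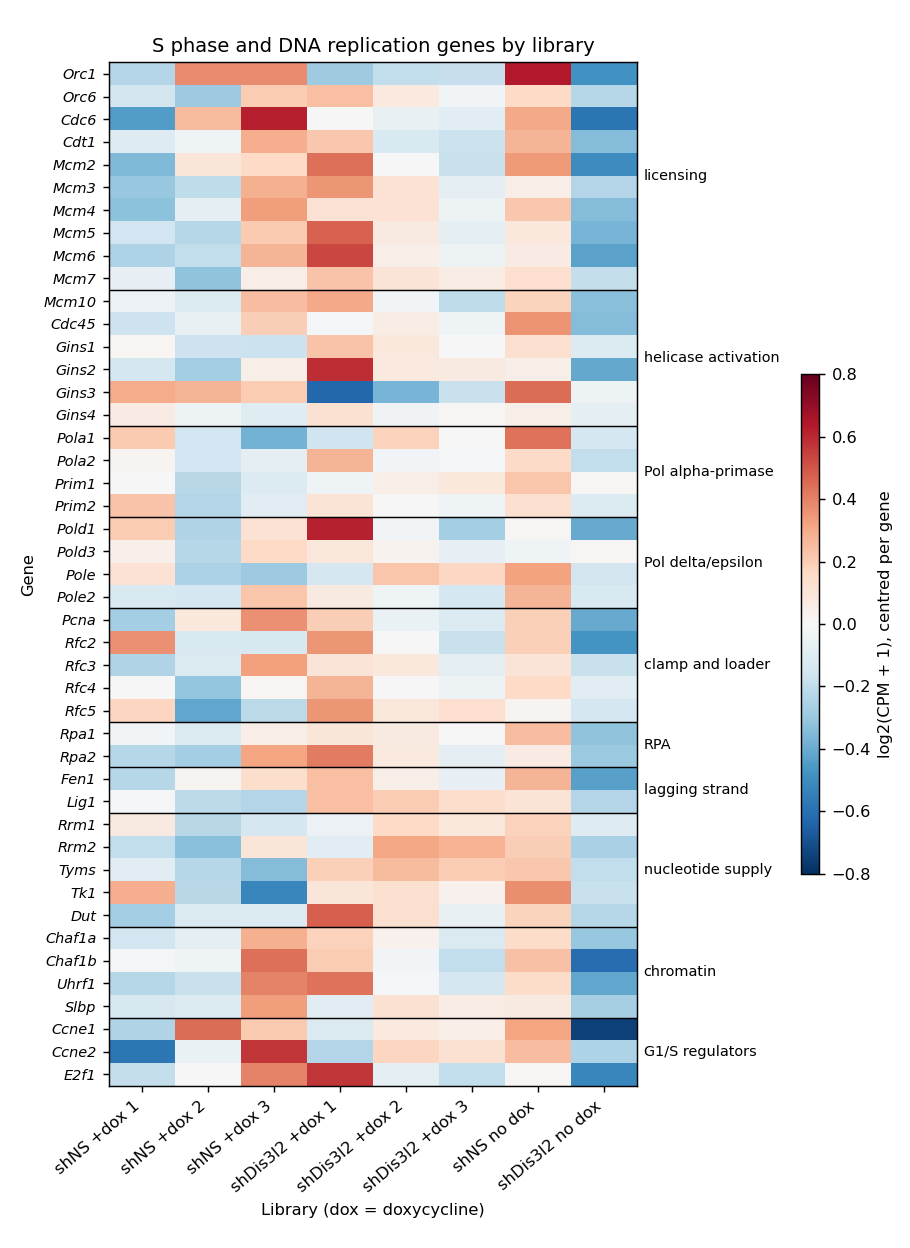
Level of each replication gene (rows, grouped by role) in each library (columns), as log2(CPM + 1) minus the gene's mean over the 8 libraries. Red is above and blue below that mean; the untreated shDis3l2 column is blue for nearly all rows, and shDis3l2 replicate 1 with doxycycline is mostly red.

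Untreated shDis3l2 was the lowest of the 8 libraries for 23 of the 45 genes, while it was lowest for 13.9% of all 15250 genes tested. Replicate 1 of shDis3l2 with doxycycline was the highest for 19 (19.4% of all genes), untreated shNS for 11 (13.2%) and replicate 3 of shNS with doxycycline for 10 (14.9%). The mean of the 45 genes, each centred on its own mean of log2(CPM + 1), was -0.09, -0.12 and 0.11 in replicates 1, 2 and 3 of shNS with doxycycline. It was 0.17, 0.05 and -0.04 in the shDis3l2 replicates, 0.19 in untreated shNS and -0.28 in untreated shDis3l2. The lines thus overlapped with doxycycline and stood at opposite ends without it. In replicate 1 of shDis3l2, 33 genes lay above the mean of replicates 2 and 3 and 12 below it. That library also had short genes high, the mean of the 2954 shortest protein-coding genes tested standing at 0.23 relative to replicates 2 and 3 and that of the 2954 longest at -0.12. Among the replication genes the shorter 23 stood at 0.15 and the longer 22 at 0.18 on the same scale. Untreated shDis3l2 tilted the other way, with a centred mean of -0.13 for the shortest protein-coding genes and 0.002 for the longest. There the shorter and the longer replication genes stood at -0.28 and -0.29. The part of these length patterns in the results below was not tested.

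With doxycycline, no gene of the set was called different between the lines. By edgeR's quasi-likelihood test at an adjusted p of 0.05, 0 of 45 passed, against 6.14% of the 13752 genes tested. At an unadjusted p of 0.05, Tyms and Lig1 were higher in shDis3l2 (2 of 45, against 8.8% of all genes) and Gins3 was lower (1 of 45, against 12.0%). DESeq2 called 2 of the 45, Gins3 and Tyms, against 12.7% of the genes entered, and limma-voom called 1, Gins3, against 6.18%. The differences were small: the median log2 fold change of shDis3l2 over shNS was 0.10, with 35 genes positive and 10 negative, where all genes had a median of -0.00 and 49.7% positive. Scaled by library size alone, which moved the median of all genes to 0.05, 38 genes were positive, with Pole2, Slbp and Ccne2 changing sign. Without replicate 2 of shNS the median was 0.05 with 28 genes positive, and leaving out each library in turn gave 0.04 to 0.17 with 28 to 40 positive. The 95% interval of the fold change lay within 2-fold either way for 44 of the 45 genes and within 1.5-fold for 24, so a larger difference was outside the interval for those genes. In bulk RNA, a different share of cells in S phase and a different amount of RNA per cell cannot be told apart.

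**Figure D2:**
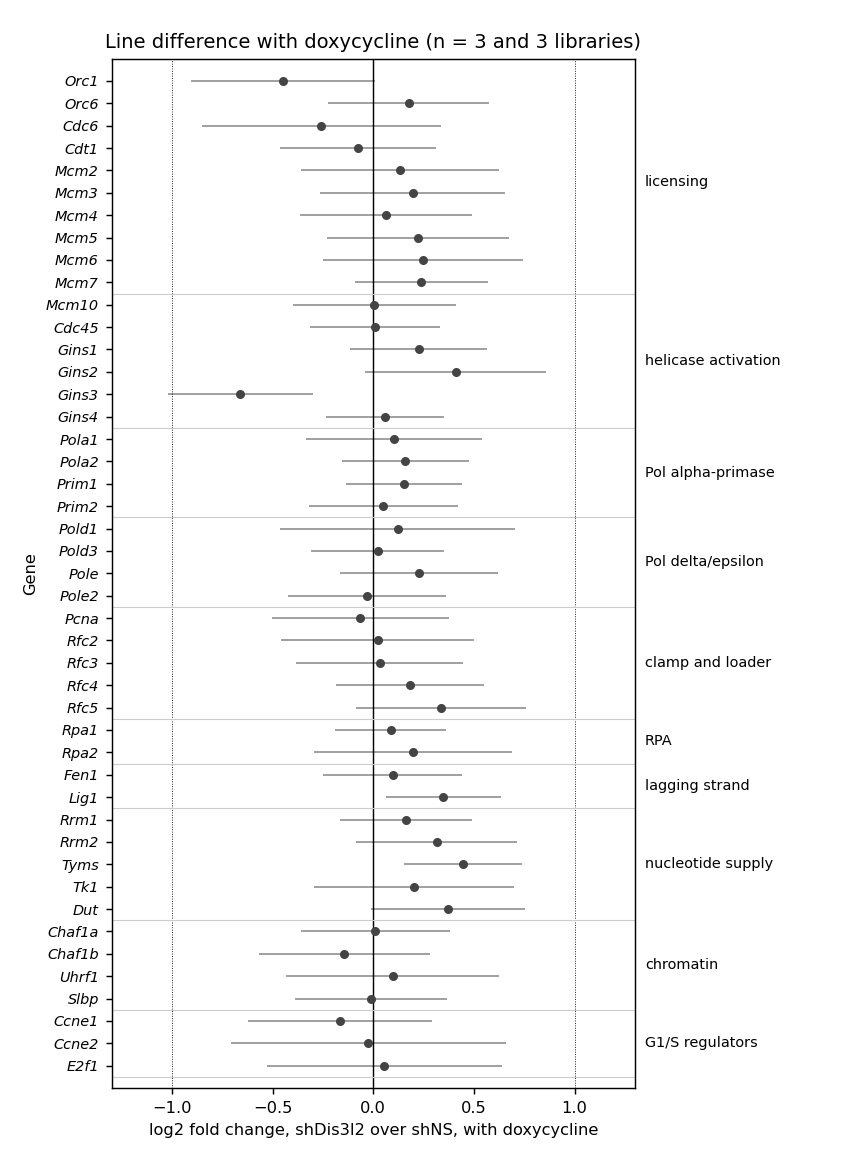
Log2 fold change of shDis3l2 over shNS with doxycycline (x axis) for each replication gene (y axis, grouped by role), with 95% intervals from edgeR on 3 and 3 libraries; dotted lines mark 2-fold. Of the 45 intervals, 44 lie inside the dotted lines, and that of Gins3 reaches -1.02.

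Gins3, a subunit of the GINS complex (ENSMUSG00000031669, chr8:95633453-95645060 on the plus strand of GRCm38), had the largest difference. It was at 34.3, 33.7 and 32.2 CPM in the shNS libraries with doxycycline and at 17.6, 21.3 and 24.5 CPM in the shDis3l2 libraries. Every shDis3l2 library lay below every shNS library, and untreated shNS and shDis3l2 were at 38.2 and 27.0 CPM. The log2 fold change was -0.66 (SE 0.154, 95% interval -1.02 to -0.30) with an adjusted p of 0.0508 by edgeR, 0.00646 by DESeq2 and 0.0480 by limma-voom. Over all alternatives the adjusted p ran from 0.00646 to 0.220. The other GINS subunits did not share this value. Gins2 was at 16.5, 14.9 and 18.9 CPM in shNS and at 28.0, 19.3 and 19.2 CPM in shDis3l2, which did not overlap, with a log2 fold change of 0.41 (adjusted p = 0.284). Gins1 had 0.22 (adjusted p = 0.448) and Gins4, the steadiest gene of the set, 0.06 (adjusted p = 0.850). Cdc45 and Mcm10, which join the helicase as it is switched on, had 0.01 each, with intervals of -0.32 to 0.33 and -0.40 to 0.41.

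Among the licensing genes, 7 of 10 were positive and 3 negative, with a median log2 fold change of 0.15. The negative ones were Orc1 at -0.45, Cdc6 at -0.26 and Cdt1 at -0.07, and Orc6, another origin recognition subunit, was positive at 0.18, none of them past the threshold. Orc1, the largest subunit of the origin recognition complex (ENSMUSG00000028587, chr4:108579423-108614833, plus strand), was at 15.1, 23.6 and 23.7 CPM in shNS and at 14.5, 15.5 and 15.7 CPM in shDis3l2. Replicate 1 of shNS thus lay with the shDis3l2 libraries (adjusted p = 0.2498), and without that library Orc1 was at -0.61 (adjusted p = 0.0441). Cdc6 spread from 27.7 CPM in replicate 1 to 59.2 CPM in replicate 3 of shNS, with 45.6 CPM in replicate 2, and from 35.8 to 38.1 CPM in shDis3l2. The helicase subunits were all positive in the main fit, from 0.06 for Mcm4 to 0.25 for Mcm6. With 1 library left out, Mcm4 went as low as -0.053 and Mcm2 as low as -0.060. Mcm7 was at 151, 126 and 163 CPM in shNS and at 185, 169 and 164 CPM in shDis3l2, so the groups did not overlap, yet its log2 fold change of 0.24 had an adjusted p of 0.402. Mcm6 spread from 157 to 225 CPM in shNS and from 181 to 270 CPM in shDis3l2 (adjusted p = 0.584).

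The genes of nucleotide supply were all positive, with a median of 0.32. Tyms, thymidylate synthase, which makes the thymidine nucleotide (ENSMUSG00000025747, chr5:30058202-30073617, minus strand), was at 35.5, 32.1 and 29.4 CPM in shNS and at 43.1, 45.1 and 43.7 CPM in shDis3l2. The shDis3l2 libraries lay within a narrow range above all of shNS, and the log2 fold change was 0.44 (SE 0.125, 95% interval 0.15 to 0.74, adjusted p = 0.0882 by edgeR and 0.0380 by DESeq2). Dut, which removes dUTP, was at 39.4, 44.1 and 44.1 CPM in shNS and 66.9, 52.2 and 45.8 CPM in shDis3l2, also without overlap (0.37, adjusted p = 0.254). For Rrm2, the regulated subunit of ribonucleotide reductase, the difference was 0.32 (adjusted p = 0.358) with overlapping groups, and Rrm1, its catalytic partner, had 0.16. Tk1, the salvage kinase for thymidine, ranged from 62.6 to 111 CPM within shNS and from 92.5 to 98.9 CPM within shDis3l2, with 0.20 between them.

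At the fork itself, Lig1, the ligase that seals Okazaki fragments, was at 85.5, 74.5 and 73.4 CPM in shNS and at 102, 99.5 and 95.2 CPM in shDis3l2. The groups did not overlap, and the log2 fold change was 0.35 (SE 0.123, adjusted p = 0.159). Fen1, the flap nuclease that acts before it, had 0.10 (adjusted p = 0.781). The 5 clamp and loader genes ran from -0.06 for Pcna to 0.34 for Rfc5 (adjusted p = 0.899 and 0.354), with Rfc4 at 0.18. Pcna was at 197, 252 and 307 CPM in shNS and at 273, 229 and 220 CPM in shDis3l2, so each shDis3l2 library lay inside the shNS range. Both single-strand binding genes were slightly positive, Rpa1 at 0.09 and Rpa2 at 0.20. The 4 genes of the polymerase alpha-primase complex ran from 0.05 to 0.16, with Prim1 at 0.15, Pola2 at 0.16 and Pola1 at 0.10. Of the polymerase delta and epsilon genes, Pole had 0.23, Pold1 0.12 and Pole2 -0.03, with adjusted p of 0.516 to 0.953.

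Histone and chromatin genes were divided, with a median of -0.00. Chaf1b, a subunit of the CAF-1 histone chaperone, had -0.14, Slbp, which binds the stem-loop of histone mRNA, -0.01 and Uhrf1 0.10. Of the regulators, Ccne1 and Ccne2, the E-type cyclins, had -0.16 and -0.02, and E2f1 had 0.05. Ccne2 was at 26.0, 37.9 and 59.0 CPM in shNS and at 33.2, 44.4 and 42.8 CPM in shDis3l2, all inside the shNS range. Its SE of 0.290 was the largest of the set. By counts of groups that did not overlap, 5 genes were higher in shDis3l2 (Mcm7, Gins2, Lig1, Tyms and Dut, against 13.2% of all genes), 1 was lower (Gins3, against 14.6%) and 39 overlapped.

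**Figure D3:**
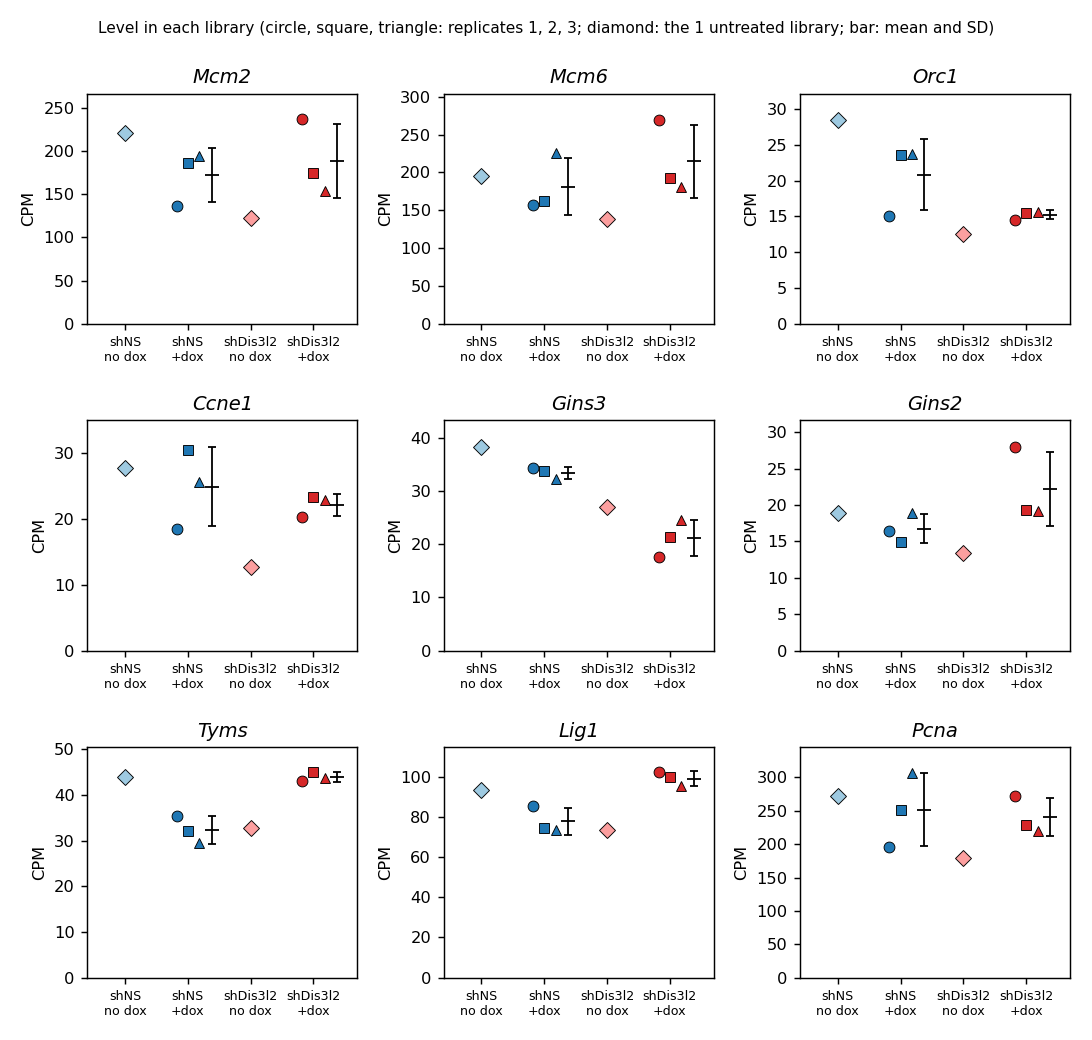
CPM of 9 replication genes in each library, by line and doxycycline; circles, squares and triangles are replicates 1, 2 and 3, diamonds the untreated libraries, and bars the mean and SD of 3. Orc1 and Ccne1 are lowest in untreated shDis3l2, and the Gins3, Gins2, Tyms and Lig1 groups with doxycycline do not overlap.

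Without doxycycline the same genes were lower in shDis3l2, by a ratio of 1 library to 1 library that has no replicate check. The ratio was below 1 for 44 of the 45 genes, against 50.2% of the 15250 genes compared, and the median log2 ratio was -0.46 (1.37-fold). Counting intervals at 95%, which cover counting error only, lay below 1 for 43 genes and spanned 1 for Pold3 and Gins4. The ratios farthest below 1 were those of Orc1 and Ccne1. Orc1 was at 28.4 CPM in shNS and 12.6 CPM in shDis3l2 (ratio 0.441, interval 0.396 to 0.492). Ccne1, which activates Cdk2 before S phase, was at 27.8 and 12.7 CPM (ratio 0.458, interval 0.411 to 0.511). Cdc6 followed at 47.2 and 25.1 CPM, Chaf1b at 39.5 and 21.6 CPM, and Mcm2 at 221 and 122 CPM. By role, the median log2 ratio was lowest for the regulators Ccne1, Ccne2 and E2f1, at -0.55. It was -0.53 for licensing, -0.53 for lagging strand maturation, -0.51 for chromatin and histone genes and -0.49 for helicase activation. The role nearest to 0 was that of the clamp and loader genes, at -0.29. The log2 ratios nearest to 0 were those of Pold3 at 0.04, of Gins4 at -0.12 and of Rfc5 at -0.16. Pold3, an accessory subunit of polymerase delta, was the 1 gene above 0. With library size alone in place of TMM the median was -0.40.

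**Figure D4:**
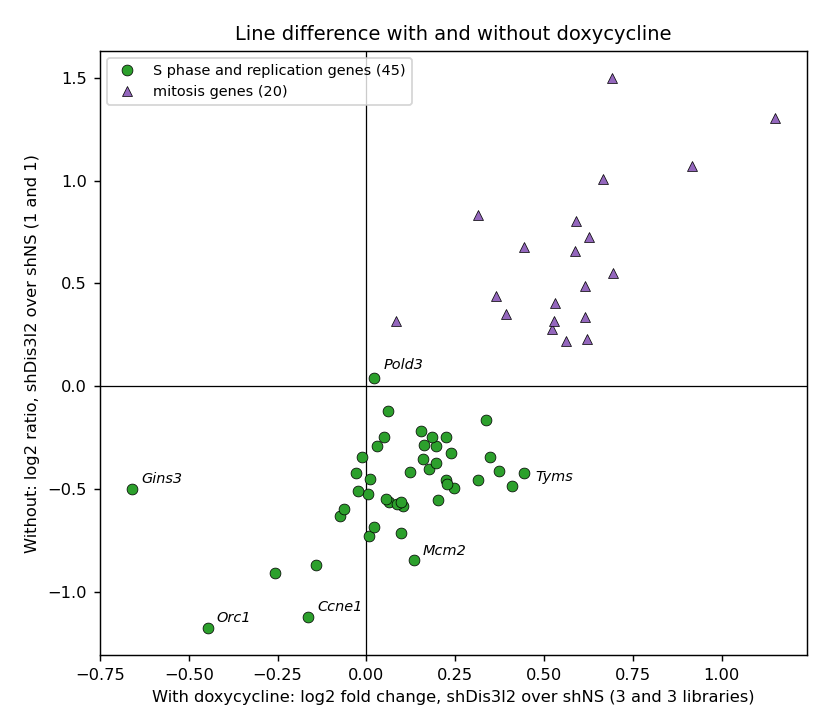
Log2 difference between the lines without doxycycline (y axis, 1 and 1 library) against that with doxycycline (x axis, 3 and 3 libraries) for the 45 replication genes (circles) and 20 mitosis genes (triangles). The circles lie below 0 on the y axis except Pold3 and on both sides of 0 on the x axis, and the triangles lie above 0 on both axes.

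Most of the genes had lower fitted values with doxycycline than without it in shNS, and higher ones in shDis3l2, with 0 called in either line. These fits share 1 estimate of the spread over 4 groups, and each untreated library is assumed to vary like the others. In shNS, 42 of 45 genes were negative, against 48.4% of all genes, and 3 positive (E2f1, Pold1 and Pold3). Without replicate 3 of shNS all 45 were negative, and without replicate 1 of shNS 36 were negative and 9 positive. The median log2 fold change was -0.32 without replicate 3 of shNS and -0.20 with all libraries. By edgeR 0 of 45 passed the adjusted threshold, as did 0.0% of the 15250 genes tested, and 1 gene, Tyms at -0.44, was lower at an unadjusted p of 0.05 (1.29% of all genes). DESeq2 and limma-voom called 0 of the 45, against 0.472% and 0.00656% of all genes. In shDis3l2, 44 of 45 were positive, against 50.6% of all genes, the exception being Gins3 at -0.35. With library size alone Pold3 was negative too. The count positive was also 43 with the filter of 1 CPM in 3 libraries and without replicate 1 of shDis3l2. In the main fit the median was 0.37. Again edgeR called 0 of 45 (0.0% of all genes), as did DESeq2 (0.42%) and limma-voom (0.0%). At an unadjusted p of 0.05, 5 genes were higher (2.22% of all genes): Ccne1 at 0.80, Gins2 at 0.72, Fen1 at 0.52, Lig1 at 0.43 and Tyms at 0.42.

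The difference between these effects, shDis3l2 minus shNS, was positive for 43 of 45 genes, all but Gins3 and Pold3, against 49.2% of all genes. Its median over the 45 was 0.58 on the log2 scale. It uses the same 8 libraries as the effects above and the line differences, so it is the same measurement in another form. By edgeR 0 of 45 passed the adjusted threshold (0.0% of all genes), and DESeq2 and limma-voom also called 0 of 45 (0.223% and 0.0%). At an unadjusted p of 0.05, 7 were positive (1.61% of all genes): Tyms at 0.87, Lig1 at 0.69, Rpa1 at 0.66, Fen1 at 0.81, Cdc45 at 0.74, Ccne1 at 0.96 and Dut at 0.78. The largest difference was that of Mcm2 at 0.98, with an interval of -0.03 to 1.99. Without replicate 2 of shNS, the median was -0.16 for the effect in shNS and 0.55 for the difference, and edgeR called 0 of the 45 in both, although over all genes it then called 252 higher and 292 lower for the effect in shNS, and 52 higher and 69 lower for the difference. Over all genes DESeq2 called 61 higher and 11 lower for the effect in shNS, 49 and 15 in shDis3l2, and 9 and 25 for the difference. By library, Mcm2 was at 221 CPM in untreated shNS and at 136, 186 and 194 CPM with doxycycline, then at 122 CPM in untreated shDis3l2 and at 237, 175 and 154 CPM with doxycycline. All treated shNS libraries lay below their untreated library and all treated shDis3l2 libraries above theirs. This arrangement held for 17 of the 45 genes, against 6.09% of all genes, and the reverse held for 0. Without replicate 2 of shNS it held for 18 genes (9.06% of all genes), and without replicate 3 of shNS for 34 (8.3%). Taken by line, 21 genes had all treated shNS libraries below (22.8% of all genes) and 40 had all treated shDis3l2 libraries above (29.4%).

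The mitosis genes, which act later in the cycle, were read in the same libraries from a list of 20. With doxycycline all 20 were positive in shDis3l2 over shNS (19 without replicate 2 or without replicate 3 of shNS), with a median log2 fold change of 0.59. At an unadjusted p of 0.05 by edgeR, 10 of the 20 were higher, against 8.8% of all genes. After adjustment 1 was called, Ccnb2 at 1.15 (edgeR adjusted p = 0.0472), against 6.14% of all genes. That call was kept in 5 of the alternatives and lost in 9, the replicate block among them (adjusted p = 0.0645). Cdk1, the mitotic kinase, had 0.52 (adjusted p = 0.0665). Without doxycycline all 20 were again higher in shDis3l2, with a median log2 ratio of 0.52, where the replication genes had -0.46. The centred mean of the mitosis genes was 0.12, -0.47 and -0.77 in the shNS libraries with doxycycline, 0.18, 0.31 and 0.24 in the shDis3l2 libraries, and -0.11 and 0.51 in untreated shNS and shDis3l2. Replicate 3 of shNS had the lowest mitosis mean and a replication mean above 0, and untreated shDis3l2 had the highest mitosis mean and the lowest replication mean.

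**Figure D5:**
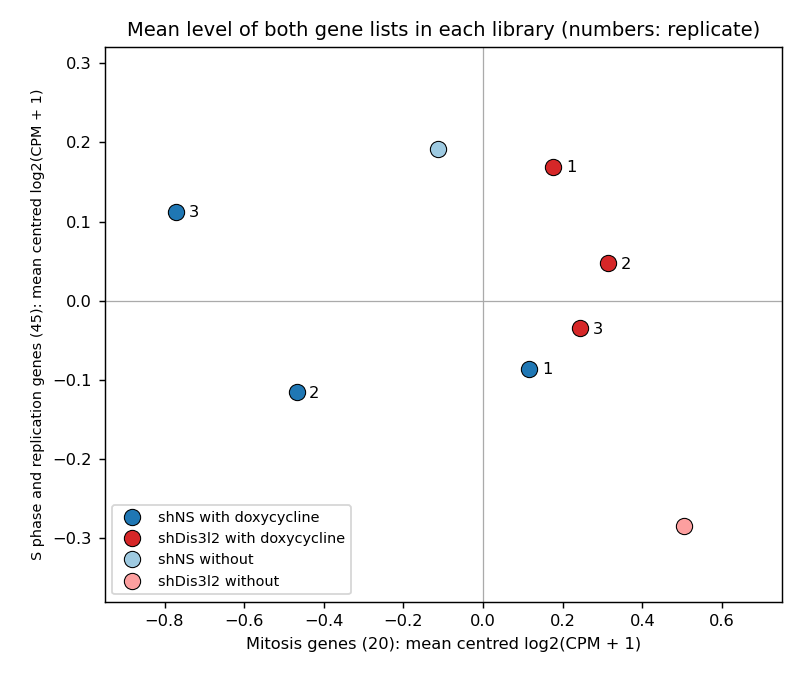
Mean centred log2(CPM + 1) of the 45 replication genes (y axis) against that of 20 mitosis genes (x axis), 1 point per library, numbered by replicate. Untreated shDis3l2 lies at 0.51 and -0.28, and shNS replicate 3 with doxycycline at -0.77 and 0.11.

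Other genes of the pathway were read from fixed lists. Over all genes with doxycycline, edgeR called 6.14%, and 8.8% were higher and 12.0% lower at an unadjusted p of 0.05. Of 13 other licensing and firing genes, 0 were called by edgeR with doxycycline, 1 was higher and 1 lower at an unadjusted p of 0.05, and their median was 0.03. The lowest of them was Orc5, a further origin recognition subunit, at 51.2, 62.2 and 51.3 CPM in shNS and 36.6, 38.2 and 37.0 CPM in shDis3l2 (-0.56, adjusted p = 0.0508, and 0.00752 by DESeq2), and Donson had 0.44 (adjusted p = 0.146). Of 18 further fork genes 1 was called: Tipin, a partner of the fork protection protein Timeless, rose from 47.2, 53.5 and 63.9 CPM to 120, 102 and 97.0 CPM (0.96, adjusted p = 0.0168). Chtf18 had 0.31 (adjusted p = 0.345). Of 12 further nucleotide and chromatin genes 0 were called and 6 were higher at an unadjusted p of 0.05, among them Dck at 0.61 and Dtymk at 0.45, kinases of deoxynucleotide supply.

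Of 22 E2F, RB and cyclin genes, edgeR called 1 (6.14% of all genes), E2f7, an E2F repressor, at 0.80 (adjusted p = 0.0367). Usp1 had 0.35 (adjusted p = 0.182). At an unadjusted p of 0.05, 3 of the 22 were higher (8.8% of all genes). Of 4 CDK inhibitors that could be tested out of 7, 2 were called, Cdkn2d at 1.21 (adjusted p = 0.0208) and Cdkn2c at 0.97 (adjusted p = 0.0216). The other 2 were negative with doxycycline: Cdkn1a averaged 131 CPM in shNS and 105 CPM in shDis3l2, and Cdkn1b 63.4 and 62.1 CPM. Without doxycycline all 4 were higher in shDis3l2, with a median log2 ratio of 0.91. Of 8 checkpoint genes 0 were called by edgeR and 1 was higher at an unadjusted p of 0.05, Chek1 at 0.60 (adjusted p = 0.126, and 0.0266 without replicate 3 of shNS), with Hus1 at 0.16. The calls were lost in 4 alternatives for Tipin and Cdkn2d, in 5 for Cdkn2c and in 7 for E2f7. The highest adjusted p over the alternatives was 0.0693 for Tipin, 0.169 for E2f7, 0.0990 for Cdkn2c, 0.0868 for Cdkn2d and 0.165 for Ccnb2. Tipin, Cdkn2d, Ccnb2 and Chek1 lie on chromosome 9, where 8.79% of tested genes were called higher in shDis3l2 against 1.74% elsewhere. Like Chek1, the other listed genes on that chromosome were not called by edgeR with doxycycline. Their log2 fold changes were -0.02 for Topbp1, 0.01 for Atr, 0.09 for Dnmt1, 0.16 for Cdc25a, 0.19 for Atrip and -0.46 for Tfdp2. None of the 45 replication genes lies there (0 of 45, on 14 chromosomes). The part of that chromosome in these values was not tested.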

How the data were processed

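Per the labels' protocols, a stranded total RNA kit with removal of ribosomal RNA was used and pairs of 150 nt were read. Cutadapt, STAR 2.7, RSEM and the builds GRCm38 and mm10 come from the submitters' processing notes. Which annotation and strand setting were used, and which versions of cutadapt and RSEM, is not given in the sources used here. One table of RSEM expected counts, not normalized, was deposited by the authors for the 8 libraries. All 55450 identifiers matched GENCODE M21.

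Rounding to whole counts altered 4.68 to 5.24% of values per library. The main test was edgeR 4.0.16 (R 4.3.3) quasi-likelihood, robust, two-sided, with TMM, filterByExpr at a minimum count of 10 and Benjamini-Hochberg adjustment over all genes tested, at 0.05. The line difference used the 6 doxycycline libraries and the other tests all 8 as 4 groups, each with 4 residual degrees of freedom. The 2 untreated libraries were compared by log2 ratio with prior count 2, and no test. The fits were tested on simulated data.

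The members and lists were chosen with earlier results of these data known. Named with values are, in each role, the 3 members with the smallest p in the line difference, those past the threshold, the extremes of each comparison, and the 2 genes with the smallest p of each other list. Other genes and values named beyond this rule were chosen after their values were seen. Alternatives were DESeq2 1.42.0, limma-voom (limma 3.58.1), scaling by DESeq2 size factors or by library size alone, a low-count filter of 1 CPM or more in 3 libraries or none, a replicate block, all 8 libraries, and leaving out each doxycycline library. Chtf8 was left out because 2 identifiers carry its symbol. Exons of 17 members overlap another gene, 15 of them on the opposite strand, so RSEM may divide reads between them. All pairs of replicates differed beyond counting noise (chi-square per gene 18.1 to 195.4).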

Additional observations from a re-analysis of the deposited data

Results flagged for a closer look

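For 17 of the 45 replication genes, all 3 shNS libraries with doxycycline lay below the 1 without and all 3 shDis3l2 libraries lay above theirs, so every treated library of 1 line moved one way and every treated library of the other the opposite way. Of all genes, 6.09% had this arrangement. As a pattern of opposite moves this was not tested. The difference of the effects itself passed edgeR's adjusted threshold for 0 of the 45 genes (0.0% of all genes). At an unadjusted p of 0.05 by edgeR it was higher for 7 (1.61% of all genes). DESeq2 and limma-voom called 0 of the 45 (0.223% and 0.0% of all genes). The count was 17 to 34 with each treated library left out (6.9 to 9.06% of all genes), an alternative added after the data were seen. The 34 was without shNS replicate 3 (8.3% of all genes). Both sides rest on 1 untreated library each. Untreated shNS was the highest of the 8 libraries for 11 of the genes (13.2% of all genes) and untreated shDis3l2 the lowest for 23 (13.9%).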

How the results depend on the processing

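With doxycycline, the count of replication genes called between the lines was 0 in the main fit, 2 by DESeq2 and 1 by limma-voom, and 0 to 1 when each library was left out, the 1 being Orc1 without shNS replicate 1. The replicate numbers did not pair the libraries (correlations of same-numbered libraries -0.118, 0.02 and -0.02), and with the number as a block 0 were called. The median doxycycline effect in shNS ran from -0.32 to -0.16 over the libraries left out, lowest without shNS replicate 3. Dis3l2 had -1.01 with the block (adjusted p = 0.0869) and -1.20 to -0.88 with each library left out. Over 44 named genes and 616 alternative values, 548 kept direction and call, 29 lost and 9 gained a call, and 30 changed sign, none of them called; the causes were not tested. With library size alone the sign changed for Pole2 (0.025), Slbp (0.050) and Ccne2 (0.054), and with no low-count filter for Pole2 (0.0017), Slbp (0.019) and Ccne2 (0.0055). With limma-voom it changed for Slbp (0.00021) and Ccne2 (0.037), and with the replicate block for Pole2 (0.0021), Slbp (0.024) and Ccne2 (0.066). With each library left out, ranges among these 44 genes that crossed 0 were those of Pola1 (-0.032 to 0.31), Pold1 (-0.18 to 0.32), Pole2 (-0.098 to 0.10), Pcna (-0.19 to 0.097), Chaf1b (-0.25 to 0.028), Uhrf1 (-0.091 to 0.32), Slbp (-0.086 to 0.15), Ccne1 (-0.31 to 0.0089), E2f1 (-0.23 to 0.23), Ccne2 (-0.24 to 0.33), Mcm2 (-0.060 to 0.28) and Pold3 (-0.083 to 0.11). Replication genes outside the 44 also had ranges that crossed 0. These were Cdc6 (-0.48 to 0.0031), Cdt1 (-0.20 to 0.050), Mcm4 (-0.053 to 0.26), Mcm10 (-0.14 to 0.13) and Cdc45 (-0.046 to 0.12). The others were Prim2 (-0.050 to 0.22), Rfc2 (-0.14 to 0.23), Rfc3 (-0.059 to 0.22) and Chaf1a (-0.065 to 0.15). The count of genes with opposite moves by line ran from 17 to 34 (6.9 to 9.06% of all genes), an alternative chosen after seeing the data. It was highest without shNS replicate 3 (8.3% of all genes). With 1 untreated library a line, no spread of that group was measured.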
